A study of Mus musculus with 24 samples.

Results

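The methylation of 8 neural transcription factor genes (Neurod1, Neurod2, Tbr1, Emx2, Lhx2, Dlx1, Dlx2 and Sox2) was described in liver, brain and heart of the mouse. Each gene was taken from 5 kb upstream of its transcription start to its end in the RefSeq annotation of mm10, and its tiles, windows of 100 bp, were collected from the tables of the 3 tissues. These windows held 270 tiles in any table and 250 tiles in all 3 tables, of 758685 tiles that the 3 tables share. The data came from enhanced reduced representation bisulphite sequencing (RRBS), which reads CpG methylation near restriction sites, in C57BL/6J mice. All mice were 24 weeks old, untreated and of this 1 inbred strain, with 12 liver libraries from 6 males and 6 females, and 6 brain and 6 heart libraries from 3 males and 3 females each. DNA was taken from a coronal slice of the front of the brain, from the apex of the heart and from the left lobe of the liver, so that every value is a mixture of the cell types in that piece. The columns of the tables give the tissue but not the mouse or the sex, and libraries are therefore named here by tissue and column.

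The 8 genes encode DNA-binding proteins that direct the formation of neurons. Neurod1 and Neurod2 are basic helix-loop-helix factors of neuronal differentiation, Tbr1 is a T-box factor of glutamatergic neurons of the cortex, and Emx2 and Lhx2 are homeodomain factors that pattern the dorsal forebrain. Dlx1 and Dlx2 are neighbouring homeobox genes of the ventral forebrain and of GABAergic interneurons, and Sox2 is an HMG-box factor of neural stem cells. Genes of this kind usually lie in long CpG-rich stretches, and such stretches are as a rule kept free of methylation, also in tissues where the gene is silent. On mm10 the curated RefSeq transcripts of the genes lie at chr2:79452637-79456636 (Neurod1, minus strand), chr11:98325417-98329645 (Neurod2, minus strand), chr2:61804453-61814114 (Tbr1) and chr19:59458690-59465357 (Emx2). Lhx2 lies at chr2:38339281-38369737, Dlx1 at chr2:71529445-71533981, Dlx2 at chr2:71543408-71546754 on the minus strand, and Sox2 at chr3:34649995-34652461. The windows of Emx2, Dlx1 and Sox2 overlap the curated non-coding genes Emx2os, Dlx1as and Sox2ot, whose tiles cannot be told apart from theirs. Predicted RefSeq models were not used to place tiles, though some reach into the windows of Lhx2 and Tbr1.

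The sequences that follow are the tiles on which the results turn, read 5′ to 3′ from the plus strand of mm10 with every CpG in capitals. The first 3 lines show the Lhx2 tiles at which brain lay furthest above both other tissues, at chr2:38337101-38337200 upstream of the gene and at chr2:38367101-38367200 and chr2:38367201-38367300 in an intron near its end. Predicted non-coding RNAs on the opposite strand cover all of these, the first in an intron of Gm46736 and the others in an exon of Gm13584.
Lhx2 upstream: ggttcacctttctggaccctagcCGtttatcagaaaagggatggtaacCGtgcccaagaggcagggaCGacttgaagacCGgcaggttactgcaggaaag
Lhx2 intron, first tile: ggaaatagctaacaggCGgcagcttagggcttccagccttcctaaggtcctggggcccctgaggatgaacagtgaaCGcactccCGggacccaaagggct
Lhx2 intron, second tile: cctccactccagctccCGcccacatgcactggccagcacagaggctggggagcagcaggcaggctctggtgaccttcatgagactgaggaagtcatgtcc
The next 3 lines show tiles of Tbr1 (chr2:61803101-61803200, upstream), Neurod1 (chr2:79458901-79459000, upstream, on the plus strand although the gene is read from the minus strand) and Emx2 (chr19:59463901-59464000, coding exon) with smaller differences in the same direction. The Tbr1 tile lies inside a predicted transcript of that gene which starts further upstream.
Tbr1 upstream: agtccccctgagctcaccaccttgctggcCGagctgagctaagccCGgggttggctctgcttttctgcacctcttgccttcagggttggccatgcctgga
Neurod1 upstream: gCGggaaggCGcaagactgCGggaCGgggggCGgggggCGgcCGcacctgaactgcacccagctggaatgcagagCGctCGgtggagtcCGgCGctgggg
Emx2 exon: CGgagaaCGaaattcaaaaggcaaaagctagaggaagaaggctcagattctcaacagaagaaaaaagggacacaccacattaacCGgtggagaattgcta
The last 2 lines show promoter tiles close to the starts of Sox2 (chr3:34649801-34649900) and Dlx1 (chr2:71529301-71529400), which were unmethylated in the 3 tissues. They are printed to set the CpG-rich starts beside the CpG-poor Lhx2 tiles.
Sox2 promoter: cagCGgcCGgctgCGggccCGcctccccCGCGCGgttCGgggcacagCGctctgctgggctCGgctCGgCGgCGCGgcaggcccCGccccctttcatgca
Dlx1 promoter: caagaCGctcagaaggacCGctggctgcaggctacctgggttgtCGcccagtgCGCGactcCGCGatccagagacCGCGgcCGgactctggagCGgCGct
The Lhx2 tiles hold 4, 3 and 1 CpGs, the Sox2 tile holds 15 and the Dlx1 tile holds 12. The Tbr1 and Emx2 tiles hold 2 and 3, and the Neurod1 tile, which is itself CpG-rich, holds 11. The tiles were picked for printing after their values had been seen.

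The tables held 819713 tiles in liver, 942643 in brain and 930358 in heart, with no read counts, so the depth behind a level is unknown beyond the authors' minimum of more than 10 reads. Over all shared tiles the library means ran from 64.8% to 66.1% in liver, from 63.7% to 66.4% in brain and from 59.6% to 60.3% in heart, so that brain lay above heart by a median of 3.00 points over all tiles and below liver by a median of 0.28 points (brain minus liver -0.28). The labels were checked against marker genes. Tiles of hepatocyte genes averaged 43.3% in liver against 78.0% in brain and 72.2% in heart, and tiles of cardiomyocyte genes averaged 51.0% in heart against 79.4% in liver and 80.0% in brain. Brain was less clear. Oligodendrocyte genes averaged 57.5% in brain, 65.9% in liver and 58.6% in heart, astrocyte genes 54.4%, 54.5% and 52.8%, and 4 neuronal genes 59.4%, 62.7% and 56.1%, so that no list of neural cell types set brain clearly below heart. The highest correlation of a pair of libraries across tiles was 0.9773, and none was counted as a duplicate. Tissue and table cannot be told apart, since each tissue was filtered on its own.

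Across the 8 genes, methylation was low in every tissue. Of the 250 tiles, 163 (65.2%) lay under 10% in liver, brain and heart alike, against 14.1% of all shared tiles. The liver, brain and heart medians of the 250 tile levels were 3.91%, 6.16% and 3.31%, where the medians over all shared tiles were 80.8%, 79.5% and 71.9%. A median of 6 CpGs per tile set the 8 genes apart from the median of 2 CpGs over all shared tiles, and CpG-dense tiles are low in methylation throughout the tables. The tiles were therefore split into 3 classes. Promoter tiles touch the 1000 bp upstream of a transcription start, CpG-dense tiles are others with at least 7 CpGs, and the rest are called other tiles.

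Promoters were close to unmethylated. Of the 30 promoter tiles, 26 (86.7%) lay under 10% in all 3 tissues, and so did 77 of 93 CpG-dense tiles (82.8%). The same shares over all genes were 73.9% of promoter tiles and 75.1% of CpG-dense tiles, which are of a like size. The other tiles differed more from their background: 60 of 127 (47.2%) lay under 10% in all 3 tissues, where 6.31% of all other tiles in gene windows did. No test was made of these shares, since neighbouring tiles are not independent.

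Sox2, the stem cell factor, was the lowest of the 8. All 21 of its tiles lay under 10% in the 3 tissues, and its promoter mean was 2.20% ± 0.83 (SD, n = 12) in liver, 1.74% ± 0.67 (n = 6) in brain and 1.20% ± 0.57 (n = 6) in heart. At the printed Sox2 promoter tile the 12 liver libraries ran from 0.6% to 3.4% (median 1.6%), the brain libraries from 0.0% to 1.7% (median 0.6%) and the heart libraries from 0.0% to 1.6% (median 0.7%). The tissues overlap there. Dlx1 came next, with 19 of 24 tiles under 10% in all tissues and a promoter mean of 2.81% ± 0.80 in liver, 2.54% ± 1.12 in brain and 1.80% ± 0.57 in heart. Its printed promoter tile ran from 0.3% to 2.0% in liver, from 0.9% to 3.7% in brain and from 0.9% to 2.2% in heart.

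Neurod2 and Dlx2 had 15 of 20 and 25 of 35 tiles under 10% in the 3 tissues, Emx2 had 27 of 41, Tbr1 16 of 26, Neurod1 7 of 14 and Lhx2 33 of 69. Lhx2 is the longest of the genes and has 2 annotated transcription starts. Neurod1 had no promoter tile in all 3 tables, and Tbr1 had 1. High levels were found at few places, and 14 tiles had both liver and heart at 25% or more, all of them CpG-poor tiles with a median of 1 CpG. These lay upstream of Neurod2 (3 tiles) and Dlx2 (1), upstream of Tbr1 (1), in or near the end of Lhx2 (6), in an Emx2 intron (2) and at the end of Neurod1 (1). The liver, brain and heart medians over these 14 tiles were 60.7%, 67.6% and 55.8%. A brain level 25 points below both other tissues was possible at these 14 tiles only.

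**Figure D1:**
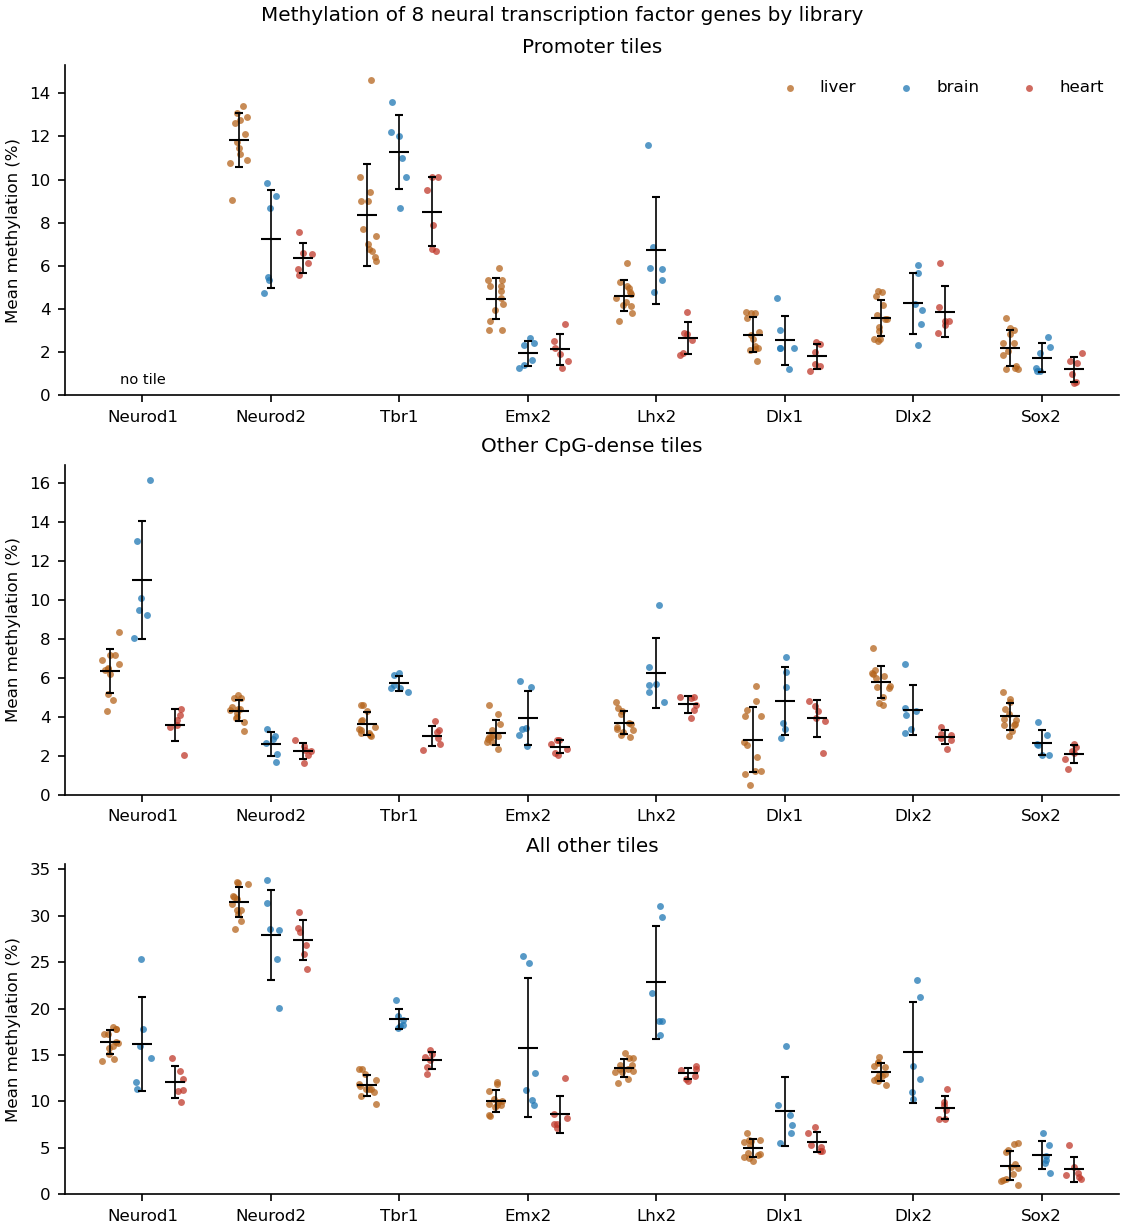
Mean methylation (%) of the promoter tiles, the other CpG-dense tiles and all remaining tiles of each gene, with 1 point per library (12 liver, 6 brain, 6 heart) and bars for the mean ± SD. Promoter means lay under 15% in every library, and brain points spread widely at the remaining tiles of Emx2, Lhx2 and Dlx2.

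The first question was whether brain lay below the other tissues at these genes. It was answered tile by tile with limma on percent methylation over all 24 libraries, with p-values adjusted over all 758685 shared tiles. A tile was called when the adjusted p did not exceed 0.01 and the tissues were 25 points or more apart. The fit takes a common spread for the tissues, so its SEs and p-values can be too small where brain libraries spread more. No tile of the 8 genes was called below both liver and heart, where 1.43% of all tiles were. None was called below liver alone (5.04% of all tiles) and none below heart alone (1.76%). At an unadjusted limma p under 0.05, and without a minimum size, 47 tiles (18.8%) were lower in brain than in liver, against 25.4% of all tiles, 0 were lower than in heart (background 10.1%) and 0 were lower than in both (background 8.19%). At the same threshold 96 tiles (38.4%) were higher in brain than in liver, against 21.0% of all tiles, 93 (37.2%) were higher than in heart, against 39.2%, and 73 (29.2%) were above both, against 14.8%. With the minimum lowered to 10 points, below-both calls stayed at 0 against 4.43% of all tiles, although only 34 of the 250 tiles had liver and heart both at 10% or more.

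In the opposite direction, 3 of 250 tiles (1.2%) were called above both liver and heart, against 1.45% of all tiles and 2.32% of the tiles with liver and heart under 25%. All 3 belong to Lhx2. Brain was called above liver at the same 3 tiles (1.2%, background 4.76%) and above heart at 7 tiles (2.8%, background 7.71%), of which 6 lie in Lhx2 and 1 upstream of Dlx2. The brain libraries in columns 2 and 6 stand apart, as described below. Without column 2 the tiles above heart numbered 4, and without both columns they numbered 2, with 1 tile above both tissues. Heart was called neither above liver (background 2.87%) nor below it (background 7.94%) at any of the 250 tiles, with 22 tiles (8.8%, background 8.49%) and 77 tiles (30.8%, background 44.8%) at an unadjusted limma p under 0.05. With a minimum of 10 points, brain lay above both tissues at 16 tiles (6.4%), a share near the 6.47% of all tiles. These 16 were 9 tiles of Lhx2, 3 of Emx2, 2 of Tbr1 and 2 of Neurod1, and 1 of them was CpG-dense and none was in a promoter. If columns 2 and 6 are left out, there were 8 such tiles, 7 of them among the 16, namely 5 of Lhx2 and 2 of Tbr1. Taken singly with that minimum, brain was above liver at 24 tiles (9.6%, background 11.4%) and above heart at 25 (10%, background 22.2%), and below liver (background 13.2%) or below heart (background 5.28%) at 0. Heart was above liver at 2 tiles (background 5.33%) and below it at 5 (background 23.5%). With either minimum, the share of called tiles was thus at or under that of all tiles in each direction. All tiles are not matched to the 8 genes in CpG number or position, by which the calls are split below.

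**Figure D2:**
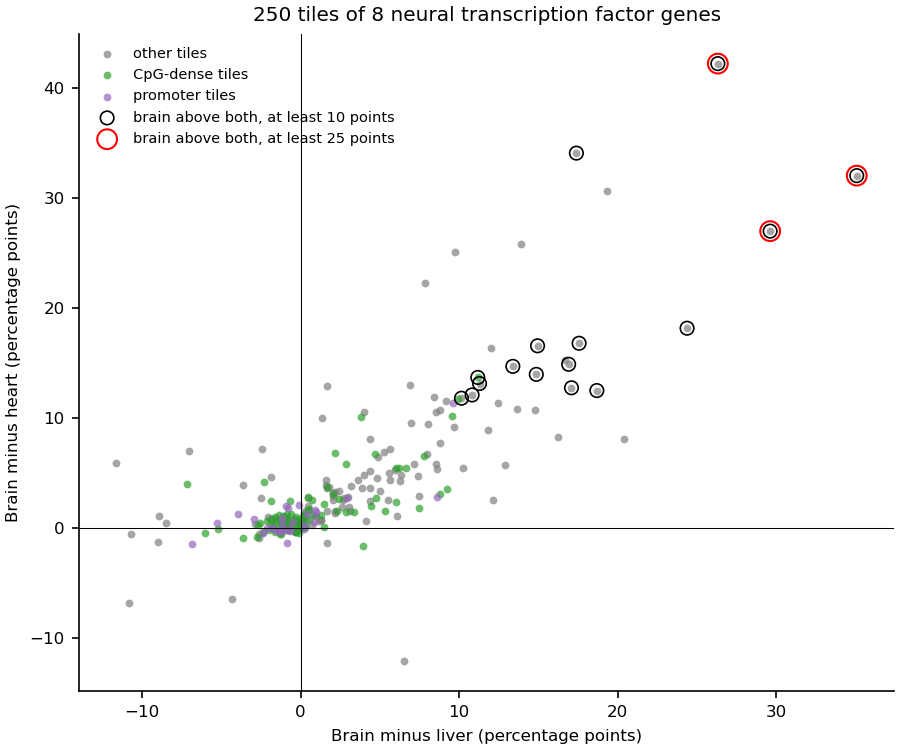
Difference of brain from liver (horizontal axis, percentage points) against difference of brain from heart (vertical axis, percentage points) for the 250 tiles, coloured by class, with circles around the tiles called above both tissues. The 3 tiles called at 25 points and the 16 called at 10 points lie at the upper right, and no called tile lies at the lower left. The liver and heart differences share the brain libraries, so the slope of the cloud is no result.

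Lhx2, the LIM homeodomain factor, showed the largest brain levels above the other tissues. At the upstream tile chr2:38337101-38337200, centred at -2131 bp from the first start, liver ran from 12.1% to 28.6% (median 16.2%) and heart from 14.3% to 28.3% (median 19.9%). The brain libraries in columns 1 to 6 gave 21.6%, 81.2%, 34.5%, 61.5%, 42.9% and 76.6%. Column 1 lay within the range of liver and heart and the other 5 columns lay above it. Brain exceeded liver by 35.1 points (SE 5.80, adjusted p = 1.7e-05) and heart by 32.0 points (SE 6.70, adjusted p = 0.00035). These SEs rest on the common spread, while brain spread far more than liver or heart at this tile. Without the brain libraries in columns 2 and 6, the differences were 22.2 and 19.1 points and the tile was no longer called.

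The other called tiles of Lhx2 adjoin each other in the intron nearest the end of the gene. At chr2:38367101-38367200, liver ran from 2.7% to 43.8% (median 11.5%), brain from 29.9% to 54.4% (median 44.2%) and heart from 11.3% to 19.0% (median 15.7%). A single liver library, in column 12, reached into the range of brain there. Brain exceeded liver by 29.6 points (SE 4.35, adjusted p = 3.0e-06) and heart by 27.0 points (SE 5.02, adjusted p = 9.5e-05). Without columns 2 and 6 the difference from heart was 23.8 points, under the minimum. At chr2:38367201-38367300 liver ran from 38.6% to 55.0% (median 44.7%), brain from 58.8% to 79.2% (median 72.4%) and heart from 20.3% to 40.9% (median 31.0%), and brain overlapped with neither. Brain exceeded liver by 26.3 points (SE 3.34, adjusted p = 3.0e-07) and heart by 42.2 points (SE 3.85, adjusted p = 2.5e-09), and both calls stood without columns 2 and 6 (25.9 and 41.8 points). This tile holds 1 CpG, so its level is that of a single site.

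Tbr1, the cortical T-box factor, had the most tiles at which all brain libraries lay above all liver and heart libraries, 4 of 26. Over the 8 genes 9 of 250 tiles (3.6%) were of this kind, against 3.03% of all shared tiles, and 0 had all brain libraries below all others, against 2.60%. The largest difference at Tbr1 lay in the untranslated part of an exon at chr2:61812501-61812600, 8097 bp after the start, where liver ran from 6.0% to 10.4% (median 7.7%), brain from 26.9% to 39.2% (median 31.1%) and heart from 10.2% to 18.4% (median 14.4%). Brain exceeded liver by 24.4 points (SE 1.49, adjusted p = 3.2e-13) and heart by 18.2 points (SE 1.72, adjusted p = 4.5e-09). The adjoining coding tile at chr2:61812401-61812500 gave 2.62% in liver, 12.2% in brain and 2.05% in heart. Upstream, at the printed tile chr2:61803101-61803200, brain ran from 26.0% to 34.7% (median 31.3%), and heart from 8.0% to 18.6% (median 14.9%). Liver ran from 8.5% to 30.0% (median 11.7%), with only column 3 in the range of brain.

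At Neurod1, the helix-loop-helix factor, the CpG-dense tile chr2:79458901-79459000, centred at -2315 bp from the start, ran from 5.0% to 11.3% in liver (median 6.9%), from 13.4% to 22.1% in brain (median 20.5%) and from 2.5% to 6.9% in heart (median 5.2%). All 6 brain libraries lay above all others. Brain exceeded liver by 11.2 points (SE 1.21, adjusted p = 1.9e-08) and heart by 13.7 points (SE 1.40, adjusted p = 1.6e-08). This was the only CpG-dense tile of the 8 genes called above both tissues at 10 points. Without columns 2 and 6 of brain the differences were 9.75 and 12.2 points (adjusted p = 1.5e-06 and 5.0e-07), the first of them just under the minimum.

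Emx2, the dorsal forebrain homeodomain factor, had 3 adjoining tiles in its last exon called above both tissues at 10 points. At the printed tile chr19:59463901-59464000 liver ran from 4.8% to 16.7% (median 9.2%) and heart from 8.9% to 21.9% (median 10%). The brain libraries in columns 1 to 6 gave 13.9%, 46.3%, 22.8%, 18.6%, 18.1% and 41.4%. Columns 2 and 6 were the highest, and 3 of the other 4 columns lay below the highest heart library. Brain exceeded liver by 16.9 points (SE 3.40, adjusted p = 0.00021) and heart by 14.9 points (SE 3.93, adjusted p = 0.0032). Without columns 2 and 6 the differences were 8.41 points from liver (adjusted p = 0.0019) and 6.37 points from heart (adjusted p = 0.030), and none of the 3 tiles was called.

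At Dlx2, of the interneuron lineage, the tile at chr2:71549601-71549700, at -2897 bp from the start, was called above heart only. It ran from 47.2% to 82.4% in brain (median 69.0%), from 29.5% to 50.8% in heart (median 43.8%) and from 48.5% to 64.6% in liver (median 57.6%). Brain exceeded heart by 25.1 points (SE 4.96, adjusted p = 0.00020). The difference from liver was 9.76 points (SE 4.30, adjusted p = 0.074), which did not pass. Brain columns 1 to 6 gave 58.8%, 82.4%, 66.7%, 71.2%, 47.2% and 75.3%. Without columns 2 and 6, which were the highest, the tile was no longer called above heart.

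Along the genes, the 16 tiles called above both tissues at 10 points were set beside the same share over all genes. In the first 2 kb after a start, 78 tiles had a highest brain level of 14.9% and 0 were called, against 2.88% over all genes. Within 2 kb upstream there was 1 such tile among 37 (background 3.21%), more than 2 kb upstream there were 3 among 31 (background 5.28%), and beyond 2 kb into the gene there were 12 among 104 (background 6.07%), 8 of them in Lhx2. Called tiles were thus less frequent near first starts over all genes too. The median brain level was 2.42% in the first 2 kb, 15.5% more than 2 kb upstream and 9.63% beyond 2 kb. By CpG number, 9 of 74 tiles with 3 CpGs or fewer were called (background 7.89%), 6 of 66 with 4 to 6 (background 4.23%) and 1 of 110 with 7 or more (background 1.48%). No test was made of these shares, which rest on all brain libraries. Without columns 2 and 6 of brain, 7 of the 16 tiles stayed called, 5 of Lhx2 and 2 of Tbr1.

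**Figure D3:**
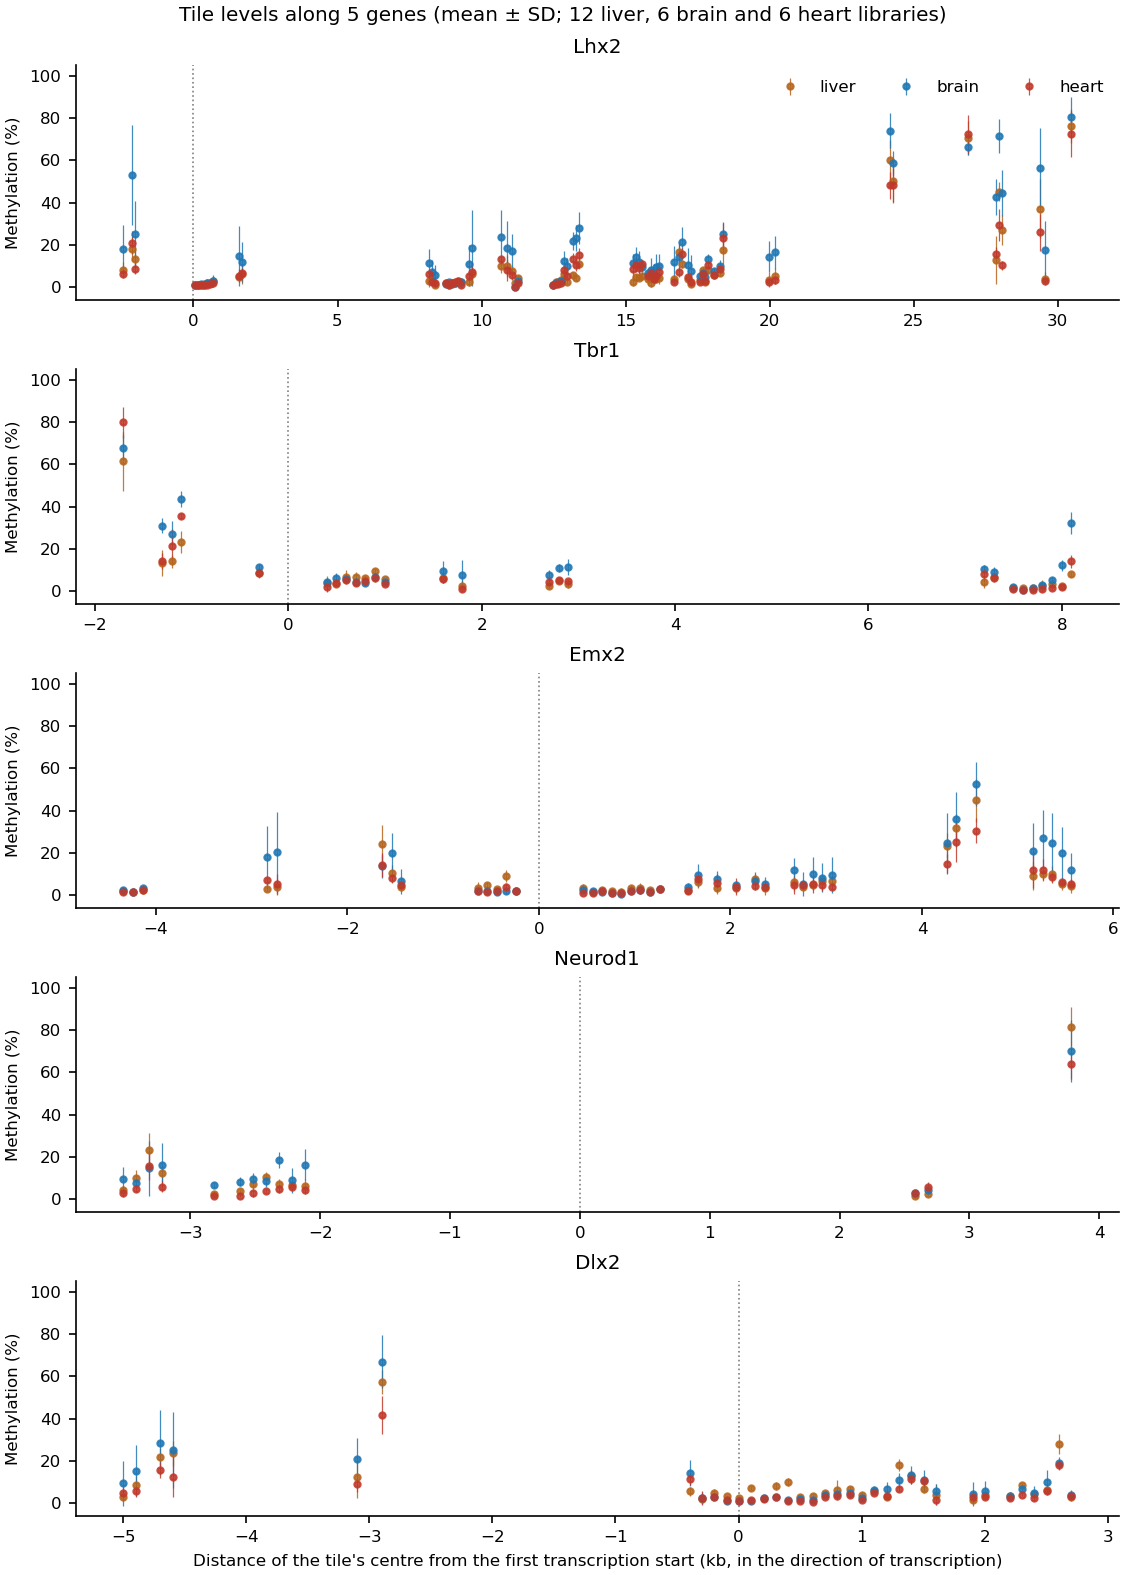
Methylation (%) of every tile in all 3 tables along Lhx2, Tbr1, Emx2, Neurod1 and Dlx2 against the distance of its centre from the first transcription start (kb), with points for the mean and bars for the SD over 12 liver, 6 brain and 6 heart libraries. In brain, no tile mean in the first 2 kb after the first start exceeds 14.9%. Brain lies above the other tissues at the ends of Lhx2 and Tbr1 and in the last exon of Emx2.

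Small differences in the other direction were found between brain and liver. At an adjusted p of 0.01 and any size, a threshold chosen after the values were seen, 27 of 250 tiles (10.8%) were lower in brain than in liver, against 17.1% of all tiles, and 60 (24.0%) were higher, against 13.6%. By position, 16 of the 27 lay in the first 2 kb (20.5% of the tiles there, against 12.2% over all genes), 4 within 2 kb upstream (10.8%, against 11.7%), 1 further upstream (3.23%, against 17.7%) and 6 beyond 2 kb (5.77%, against 22.6%). Heart was also lower than liver at 22 of the 27. They were 10 tiles of Dlx2, 9 of Neurod2, 4 of Sox2, 2 of Emx2, 1 of Lhx2 and 1 of Tbr1. At a coding tile of Dlx2 403 bp after the start (chr2:71546301-71546400), liver ran from 7.8% to 14.3% (median 9.4%), brain from 0.4% to 2.6% (median 1.2%) and heart from 0.2% to 2.0%. All liver libraries lay above all brain and heart libraries. Brain was lower by 8.50 points there (brain minus liver -8.50, SE 0.74, adjusted p = 4.0e-10). Against heart, 42 tiles (16.8%) were higher in brain at any size, against 26.0% of all tiles, and 0 were lower, against 6.16%. Brain was above both tissues at 30 tiles (12%), against 7.82% of all tiles, and below both at 0, against 5.15%.

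The means per gene and class gave the same directions at smaller size. There were 23 such means, tested with limma among 51299 means of all genes, and a mean was called at an adjusted p of 0.01 or less and 10 points or more. No mean of the 8 genes was called in any direction. Over all genes, 11.9% of the means were called against liver and 12.7% against heart, counting both directions. At an unadjusted limma p under 0.05 there were 16 of 23 against liver (background 53.7%) and 13 against heart (background 48.0%). With 5 points as the minimum, 2 means were higher in brain than in liver (background 10.7%), 4 were higher than in heart (background 23.0%), and 0 were lower than in liver (background 14.1%) or heart (background 3.76%).

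At an adjusted p of 0.01 and any size, 12 means differed between brain and liver, 7 higher and 5 lower in brain, and 7 were higher in brain than in heart with 0 lower. Over all genes such differences were common, at 41.0% of means against liver and 35.9% against heart. The largest were at the other tiles of Lhx2, with 13.6% ± 0.93 (SD, n = 12) in liver, 22.9% ± 6.09 (n = 6) in brain and 13.0% ± 0.63 (n = 6) in heart. Brain exceeded liver there by 9.26 points (SE 1.47, adjusted p = 8.7e-06) and heart by 9.85 points (SE 1.70, adjusted p = 3.1e-05), and all brain libraries lay above all others. The SEs and p-values rest on a spread common to the tissues, while the SD was far larger in brain, so they understate the uncertainty. The other tiles of Tbr1 were 11.7% ± 1.14 in liver, 18.9% ± 1.10 in brain and 14.4% ± 0.93 in heart, again without overlap of brain. Here brain exceeded liver by 7.14 points (SE 0.55, adjusted p = 7.2e-11) and heart by 4.46 points (SE 0.64, adjusted p = 2.6e-06). The CpG-dense tiles of Tbr1 also stood apart, at 3.65% ± 0.58 in liver, 5.72% ± 0.40 in brain and 3.02% ± 0.53 in heart.

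Neurod1 CpG-dense tiles averaged 6.36% ± 1.12 in liver, 11.02% ± 3.03 in brain and 3.58% ± 0.83 in heart, so that brain exceeded liver by 4.66 points (adjusted p = 4.1e-05) and heart by 7.44 points (adjusted p = 5.5e-07). The lowest brain library (8.08%) lay below the highest liver library (8.38%). The 5 means lower in brain than in liver were all small. Neurod2 promoter tiles averaged 11.8% ± 1.25 in liver, 7.23% ± 2.27 in brain and 6.38% ± 0.70 in heart (brain minus liver -4.60, SE 0.71, adjusted p = 6.6e-06), and Emx2 promoter tiles 4.48% ± 0.96, 1.95% ± 0.58 and 2.12% ± 0.73 (brain minus liver -2.53, SE 0.41, adjusted p = 1.0e-05). The others were the CpG-dense tiles of Neurod2 (-1.71), Dlx2 (-1.43) and Sox2 (-1.35). At none of these 5 did brain differ from heart at an adjusted p of 0.01, and each brain mean lay nearer to heart than to liver, though by little at Dlx2, where brain was 1.40 points above heart.

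At the 127 other tiles, brain libraries differed among themselves more than those of liver or heart, with a median SD of 5.64 points in brain, 2.52 in liver and 2.02 in heart. Over all other tiles of gene windows it was 5.1 in brain, 4.6 in liver and 4.5 in heart. At promoter tiles of the 8 genes the median SD was 1.06 points in brain, 1.46 in liver and 0.83 in heart. At their CpG-dense tiles it was 1.27, 1.34 and 0.87. In both classes brain thus spread more than heart but not more than liver. Columns 2 and 6 stood apart from the other 4. At the other tiles of Emx2, columns 1 to 6 of brain gave 10.1%, 24.95%, 11.2%, 13.0%, 9.61% and 25.7%. At those of Lhx2 they gave 17.1%, 31.0%, 18.7%, 21.7%, 18.7% and 29.9%, and at those of Dlx2 12.4%, 23.1%, 10.99%, 13.8%, 10.2% and 21.2%. In each of these 3 genes columns 2 and 6 were the highest.

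Both columns lay above the other 4 brain libraries at 75 of the 250 tiles (30.0%), against 13.4% of all shared tiles, and below them at 20 (8%), against 7.64%. By gene, they were both above the rest at 19 of 41 Emx2 tiles, 30 of 69 Lhx2 tiles, 12 of 35 Dlx2 tiles, 7 of 24 Dlx1 tiles and 5 of 21 Sox2 tiles. At Tbr1 and Neurod2 this was 1 tile each, and at Neurod1 it was 0, where columns 3 and 4 were the highest instead (17.8% and 25.4% at its other tiles, 11.3% to 15.97% in the rest). Columns 2 and 6 were also the highest brain libraries over all shared tiles (65.8% and 66.4%, with 63.7% to 65.5% in the rest) and in several marker lists. In these columns oligodendrocyte genes averaged 59.2% and 64.8% (53.4% to 56.5% in the rest), astrocyte genes 56.3% and 56.9% (51.7% to 54.4%), endothelial genes 71.7% and 73.9% (62.6% to 69.4%) and cardiomyocyte genes 82.6% and 83.1% (73.1% to 81.6%). The 4 neuronal genes averaged 59.8% and 58.6%, within the 56.1% to 62.7% of the rest. The part of cell composition, dissection or sex in these differences was not tested, since the columns carry no mouse.

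**Figure D4:**
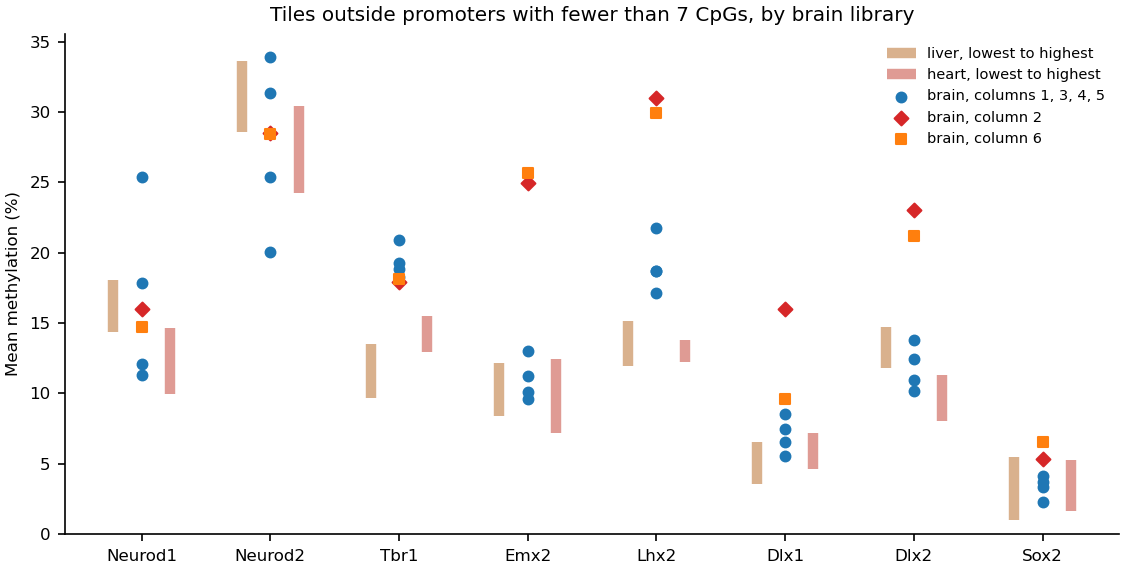
Mean methylation (%) of the other tiles of each gene, with 1 symbol per brain library and vertical bars from the lowest to the highest library of liver and of heart. Columns 2 and 6 (diamond and square) lie above the other brain libraries at Emx2, Lhx2, Dlx1, Dlx2 and Sox2, and are not the highest at Tbr1, Neurod1 and Neurod2.

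Without columns 2 and 6, brain exceeded liver at the other tiles of Lhx2 by 5.46 points (adjusted p = 2.3e-07) and heart by 6.04 points (adjusted p = 3.8e-07), and at those of Tbr1 by 7.56 and 4.88 points (adjusted p = 1.2e-09 and 6.8e-06). The corresponding differences of Emx2 were 0.93 points from liver (adjusted p = 0.39) and 2.39 points from heart (adjusted p = 0.043). With all libraries the difference of Emx2 from heart was 7.17 points (adjusted p = 0.0076), so it no longer passed an adjusted p of 0.01. At Dlx2 brain minus liver changed from 2.12 to -1.30 points, neither of which passed. Brain minus heart at Dlx2 changed from 5.95 points (adjusted p = 0.0028) to 2.53 points (adjusted p = 0.0080). Without columns 2 and 6, the differences of Emx2 and Dlx2 from heart were thus both under 5 points.

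Finally, 27 further neural transcription factors were examined in the same way, with 902 tiles in all 3 tables. Of these, 10 tiles (1.11%) in 4 genes were called above both tissues and 17 (1.88%) in 3 genes below both, where the 8 genes had 3 and 0. Over all shared tiles the shares were near these, at 1.45% above both and 1.43% below both. Among the tiles above both, 4 lay in Emx1, 2 in Fezf2 and 1 in Lhx6. Tiles below both lay in Bcl11b (13), Lhx1 (3) and Lhx6 (1). Fezf2, a factor of cortical projection neurons, averaged 14.8% and 17.3% in the brain libraries of columns 2 and 6 against 6.40% to 7.33% in the rest. Bcl11b went the other way, with 43.0% and 45.5% in these columns against 52.9% to 53.9% in the rest. Over all 902 tiles these columns were the lowest of brain, at 21.6% and 21.9% against 22.87% to 23.55%. Whether the tiles called below both depend on these columns was not tested.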

How the data were processed

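The authors prepared enhanced RRBS libraries through a commercial service, which mapped them by its own methods. They computed levels of 100 bp tiles with methylKit, and kept tiles above 10 reads in all libraries of a tissue. The deposited tables give a fraction between 0 and 1 per library on mm10, without counts; the submitters' processing notes also name Bismark. Fractions were expressed as percent. All 24 columns were used, assigned to tissues by table, and 0 other columns of levels were present. The genome and RefSeq annotation were of the same build, and 99.8% to 99.9% of tiles contained a CpG, against 55.0% to 55.2% after a shift of 100000 bp. Tissues were compared with limma 3.58.1 in R 4.3.3 (variance trend, tissue as the only term), with Benjamini-Hochberg adjustment over all shared tiles or all means of a gene and class. The procedure was tested on simulated data in which all tissues had the same spread. That test does not cover tiles where brain spreads more than liver and heart. Libraries of different tissues from the same mouse were treated as independent. Text names the 8 genes, per gene the tile called in both contrasts with the largest smaller difference, and, of the further neural factors, those with most called tiles. At 25 points this rule named the upstream tile of Lhx2, and the other tiles described were chosen after their values were seen. The genes and lists were chosen with earlier results of these data known. The values of 1 further neural factor are not reported here.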

Additional observations from a re-analysis of the deposited data

Results flagged for a closer look

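Among the 46 sets of 6 brain or heart libraries, 1 for each gene, tile class and tissue, 6 held a library whose gap to the nearest of the others was too large a part of the range by Dixon's test at the 95% level. Chance alone flags about 1 in 20 such sets, and the sets share libraries. In brain, column 2 was the library set apart in all 3 cases. It gave 11.6% at the promoter tiles of Lhx2, where the other 5 brain libraries ran from 4.77% to 6.87%. Those tiles belong to the second start of Lhx2, and column 2 gave 32.7% at the tile from chr2:38350301 and at most 2.1% at the rest. At the CpG-dense tiles of Lhx2 it gave 9.76%, with the others from 4.75% to 6.54%, and at the CpG-dense tiles of Dlx2 it gave 6.71%, with the others from 3.19% to 4.44%. In heart, 3 different columns were set apart. The other tiles of Emx2 stood at 12.5% in column 4, with 7.18% to 8.60% in the rest. The promoter tiles of Dlx2 stood at 6.14% in column 5, with 2.88% to 4.10% in the rest, and the other tiles of Sox2 at 5.30% in column 3, with 1.68% to 2.92% in the rest. What set these libraries apart was not tested.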

How the results depend on the processing

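No paired analysis was possible because the columns carry no mouse numbers. Tile counts stayed within 1.5 times their values on the log2 odds scale, without the variance trend, with each pair of tissues fitted on its own and with windows from 1 kb upstream. With a minimum of 10 points, brain was above liver at 24 tiles, above heart at 25 and above both at 16, and heart was above liver at 2 and below it at 5. The remaining alternatives were chosen after the data were seen. Leaving out each library in turn gave 2 to 4 tiles above liver, 4 to 7 above heart (4 without column 2 of brain), 2 to 3 above both, and 0 to 0 in the other directions. Above both, 2 tiles were left without column 2 or without column 4 of brain. Without columns 2 and 6 of brain, 2 tiles were above heart and 1 above both. Of the means per gene and class, 1 was called against liver with promoters of 1000 bp on either side (Tbr1, other tiles) and 1 with promoters of 2000 bp (Tbr1, promoter). Against heart, 1 was called with promoters on either side and 1 with density set at 5 CpGs (both Lhx2, other tiles). With 5 points, 2 were called against liver and 4 against heart.

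Of the 46 brain differences of a mean, 31 to 44 kept their direction and their side of an adjusted p of 0.01, depending on the alternative. Signs of small mean differences changed as follows, as brain minus liver unless heart is named. Using the median over tiles, promoter values became -2.17 (Dlx2; -0.87 from heart), -1.26 (Lhx2) and 0.25 from heart (Emx2), and others became -0.30 (Emx2, CpG-dense), 1.64 (Neurod1, other) and 0.0 from heart (Neurod2, other). With promoters on either side of the start they were -1.71 (Dlx2 promoter), -0.48 (Tbr1 promoter), 0.077 from heart (Emx2 promoter) and -0.11 from heart (Neurod2, CpG-dense). With promoters of 2000 bp they were 1.56 (Dlx1) and 1.49 from heart (Emx2), and with density at 5 CpGs -0.18 from heart (Neurod2, CpG-dense). With each tissue's own tiles they were -0.17 (Lhx2 promoter), 1.04 (Neurod1, other) and -4.65 from heart (Neurod2, other). Without columns 2 and 6 they were -0.053 from heart (Dlx1, CpG-dense), 0.16 (Dlx1 promoter), -1.30 (Dlx2, other), -0.10 (Emx2, CpG-dense) and 0.27 (Neurod1, other). The cause of these changes was not tested, except that the own-tile setting adds tiles that not every tissue has. At the Lhx2 promoter these are the tiles of the first start, added in brain and heart. The higher brain level of Lhx2 at promoter tiles, which are those of its second start, is thus not stable against liver. The means of Tbr1 and Lhx2 at other tiles kept their sign and passed an adjusted p of 0.01 under every alternative run. Depth per tile is unknown and limits the reading of tiles with 1 CpG.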

Other observations

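The end of Lhx2 holds a further tile that is in the brain and heart tables but was not tested, since the liver table does not list it. At chr2:38367401-38367500, near the intron tiles described above, brain ran from 34.3% to 74.4% (median 63.7%) and heart from 16.1% to 25.3%, without overlap. This tile holds 1 CpG. An intron tile at chr2:38352801-38352900 ran from 12.7% to 48.8% in brain (median 29.1%) and from 9.5% to 28.8% in heart, with overlap. A Tbr1 tile upstream at chr2:61802601-61802700, also absent from the liver table, ran from 38.7% to 69.4% in brain and from 29.1% to 54.3% in heart. The start of Neurod1, at chr2:79456601-79456700, was covered in brain alone, where it ran from 0.0% to 8.3% (median 3.3%). The Lhx2 tile at chr2:38339101-38339200, just upstream of the first start, ran from 0.4% to 2.0% in brain and from 0.0% to 1.1% in heart. The next tile, from chr2:38339201, holds that start and ran from 0.3% to 2.2% in brain and from 0.0% to 0.8% in heart.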
